A study of Mus musculus with 2 samples.

Results

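Mir375, 3 miR-7 genes (Mir7-1, Mir7-2 and Mir7b), Mir137 and Mir153 are microRNA genes known from chromaffin cells of the adrenal medulla, from other endocrine cells and from neurons. These 6 genes were taken by name from the 2202 microRNA genes counted, and all 6 were found. The rule uses no measured value, but the choice was made with earlier results of these data known. Mir7-1 and Mir7-2 are the annotation's symbols for the genes also called Mir7a-1 and Mir7a-2. The counts come from microRNA sequencing of adrenal gland tissue from female mice aged 10 days. The mice were of strain B6CASTF1/J, which is the F1 cross of C57BL/6J with CAST/EiJ, and the labels name no treatment. There was 1 group with 2 libraries, replicate 1 from animal number 3 and replicate 2 from animal number 4. Both carry the same donor entry, so the spread between them may be partly technical.

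Endocrine cells that secrete peptide hormones or amines store them in dense-core vesicles and release them when stimulated. In chromaffin cells the stored products are adrenaline and noradrenaline. miR-375 is abundant in pancreatic islets and the pituitary and is known to restrain hormone secretion. miR-7 is shared by islets, pituitary and hypothalamic neurons, miR-137 is known for neuronal differentiation and synaptic function, and miR-153 is known for repression of vesicle and synaptic proteins. Only microRNA genes were counted, so messenger RNAs that define chromaffin cells or cortical cells were not measured. In bulk tissue, fewer cells of a type and less RNA per cell cannot be told apart.

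The sequences show which of the 6 genes could be counted in full. RefSeq (GRCm38.p6) held the hairpins of all 6. The mature 5′ products of the miR-7 genes are printed first, because their likeness bears on the counts, with the seed, bases 2 to 8 from the 5′ end, in capitals.
miR-7a-5p, from Mir7-1 and from Mir7-2: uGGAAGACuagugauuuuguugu
miR-7b-5p, from Mir7b: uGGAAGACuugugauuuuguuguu
The seeds are identical. Over the 23 bases compared, miR-7a-5p and miR-7b-5p differed by 1 substitution, A10U, counted from the 5′ end with the base of miR-7a-5p first.

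miR-7a-5p was found in 2 of 1005 RefSeq mouse hairpins, those of Mir7-1 and Mir7-2. The longest run that these hairpins share is 24 bases, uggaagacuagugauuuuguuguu, and it holds the whole mature sequence. A read lying within this run fits both copies equally, and reads with several alignments were not counted. The run shared between Mir7b and either copy was 14 bases, gugauuuuguuguu, which is shorter than a mature microRNA. Of the windows of 22 bases in each hairpin, 3 of 87 in Mir7-1 and 3 of 76 in Mir7-2 recurred in the other copy. None of the 90 windows in Mir7b recurred in any other hairpin, nor did any of the 43 in Mir375, the 52 in Mir137 or the 48 in Mir153. The genome itself was not searched.

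The 3′ products of the miR-7 genes are shown because they can tell the copies apart.
miR-7a-1-3p, from Mir7-1: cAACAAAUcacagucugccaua
miR-7a-2-3p, from Mir7-2: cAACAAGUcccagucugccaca
miR-7b-3p, from Mir7b: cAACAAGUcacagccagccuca
miR-7a-1-3p and miR-7a-2-3p differed by 3 substitutions (A7G, A10C and U21C), the first of which lies in the seed. miR-7a-2-3p and miR-7b-3p have the same seed and differed by 4 substitutions (C10A, U14C, U16A and A20U).

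Mir137, Mir153 and Mir375 had no relative of this kind, and no other mature sequence in the RefSeq table shared a seed with the products listed for them. For Mir375 only the 5′ product was listed there. The 3′ product is therefore not marked in the hairpin below, and its seed was not compared.
miR-137-5p: aCGGGUAUucuuggguggauaau
miR-137-3p: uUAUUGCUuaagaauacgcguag
miR-153-5p: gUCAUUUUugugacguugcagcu
miR-153-3p: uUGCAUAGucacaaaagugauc
Mir375 hairpin, with miR-375-5p in capitals: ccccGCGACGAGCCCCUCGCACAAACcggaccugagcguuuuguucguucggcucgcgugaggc
The Mir375 hairpin had the highest G and C content of the 6, at 67.2%, and the others ran from 41.7% in Mir7-1 to 50.5% in Mir7-2. Counts are per hairpin, so the arms were not measured separately.

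The 6 genes lie on 6 chromosomes of mm10. Mir375 (chromosome 1, 74900658 to 74900721, minus strand) overlaps no other annotated gene, and the nearest protein-coding gene is Cfap65 at a distance of 1350 bases. Mir7-2 (chromosome 7, 78888277 to 78888373, plus strand) and Mir7b (chromosome 17, 56242988 to 56243098, plus strand) also overlap none. Mir7-1 (chromosome 13, 58392779 to 58392886, minus strand) lies in an intron of Hnrnpk, a widely expressed RNA-binding protein gene, on the same strand. Mir153 (chromosome 12, 117250817 to 117250885, plus strand) lies in an intron of Ptprn2, which encodes a protein of dense-core vesicles, also on the same strand. The noncoding gene Gm5441 runs across it on the opposite strand. Mir137 (chromosome 3, 118433857 to 118433929, plus strand) lies in sequence that is exonic in the noncoding gene Gm26871. The nearest other microRNA gene to Mir137, Gm24155 at 792 bases, had 0 counts in both libraries, as had the nearest microRNA gene to each of the other 5.

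The libraries held 2023410 and 3208821 counts on the strand of microRNA genes in replicates 1 and 2, and levels are given as CPM, counts scaled to 1000000 of these. Reads with several alignments came to 65.2 and 72.6 per 100 counted reads. The libraries stood apart in microRNAs of endothelium and of liver: endothelial Mir126a took 177728 and 47927 CPM, and Mir122 of liver took 26733 and 9284 CPM.

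Mir375 had by far the most counts of the 6 genes. It had 50190 counts in replicate 1, which is 24805 CPM (exact Clopper-Pearson 95% interval 24591 to 25020), and 102437 counts in replicate 2, which is 31924 CPM (31732 to 32117). Its mean was 28364 ± 5034 CPM (SD, n = 2). Replicate 2 was the higher library and the intervals, which cover counting error only, did not overlap. Mir375 stood at rank 11 of all genes in replicate 1, rank 8 in replicate 2 and rank 7 by mean CPM. Its neighbours by mean CPM were Mir143 above (27532 and 33734 CPM) and Mir139 below (25441 and 29196 CPM), and the ranges of all 3 overlapped.

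Mir7b carried most of the counted miR-7. It was at 2333 CPM in replicate 1 (95% interval 2267 to 2400) and 2081 CPM in replicate 2 (2032 to 2132), a mean of 2207 ± 178 CPM (SD, n = 2), and held ranks 60 and 61. Replicate 1 was higher and the intervals did not overlap. Its neighbours by mean CPM were Mir92-1 (2555 and 1875 CPM) and Mir483 (3068 and 1173 CPM), whose values in the 2 libraries lay further apart. Mir7-1 stood at 159 CPM (142 to 178) and 166 CPM (152 to 181), a mean of 163 ± 4.93 CPM (SD, n = 2), and its intervals overlapped. It stood between Mir138-2 (162 and 170 CPM) and Mir3072 (205 and 118 CPM). Mir7-2 was lower, at 46.0 CPM (37.1 to 56.3) from 93 counts in replicate 1 and at 32.7 CPM (26.8 to 39.6) from 105 counts in replicate 2. Its intervals overlapped as well, and Mir190a (42.01 and 38.3 CPM) and Mir5121 (47.9 and 29.9 CPM) were next to it.

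Of the counts of the 3 listed miR-7 genes, Mir7b made up 91.9% in replicate 1 and 91.3% in replicate 2. This share is no measure of miR-7b against miR-7a, because the mature miR-7a-5p printed above fits both copies and its reads were set aside. The counts of Mir7-1 and Mir7-2 are therefore lower limits for those genes. How many of the 1318731 and 2329968 reads with several alignments were miR-7a was not measured.

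Mir137 stood at 869 CPM in replicate 1 (95% interval 829 to 910) and 774 CPM in replicate 2 (744 to 805), a mean of 822 ± 66.8 CPM (SD, n = 2). It held ranks 100 and 104, between Mir150 (721 and 933 CPM) and Mir34c (250 and 1376 CPM) by mean. Replicate 1 was higher and the intervals of Mir137 did not overlap. Mir153 was close to the lower end of what was measured, with 29 and 30 counts. These correspond to 14.3 CPM (9.60 to 20.6) in replicate 1 and 9.35 CPM (6.31 to 13.3) in replicate 2, a mean of 11.8 ± 3.52 CPM (SD, n = 2). Next to it by mean were Mir133b (17.8 and 5.92 CPM) and Mir3070a (15.3 and 8.10 CPM).

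**Figure D1:**
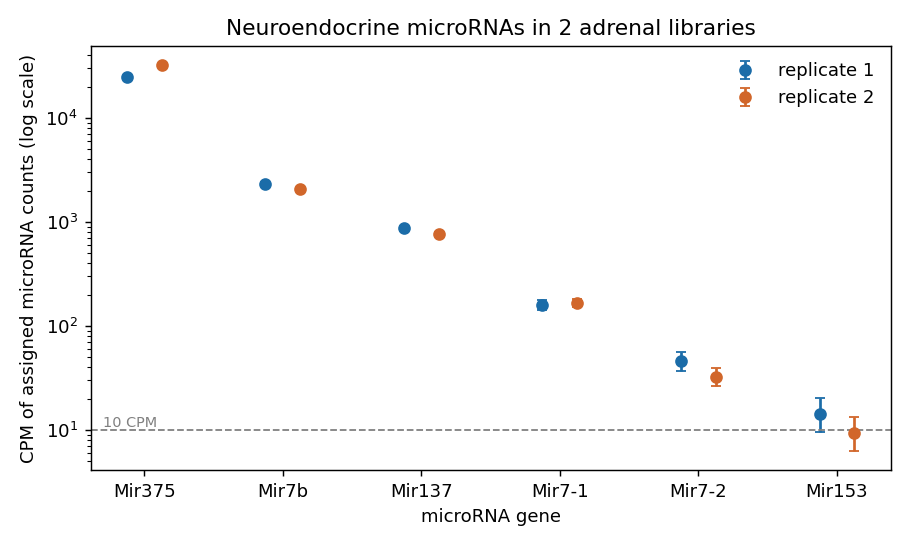
CPM (log axis) of the 6 neuroendocrine microRNA genes in each library. Points are single libraries, bars are exact 95% intervals for counting error, and the dashed line marks 10 CPM. The order of the genes is the same in both libraries, from Mir375 at 24805 and 31924 CPM to Mir153 at 14.3 and 9.35 CPM.

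The order from high to low was Mir375, Mir7b, Mir137, Mir7-1, Mir7-2 and Mir153 in both libraries, and the 2 values of each gene lay wholly above those of the next. Mature microRNAs are of similar length, so no length correction was made. How evenly reads of different sequences are captured was not measured, so the order is one of counts. The places of Mir7-1 and Mir7-2 rest on counts that lack their shared reads. Together the 6 genes took 2.82% and 3.50% of all counts, a mean of 3.16% ± 0.478 (SD, n = 2), and Mir375 alone made up 87.9% and 91.2% of that sum. The other 5 genes summed to 3421 and 3064 CPM. No read was counted on the opposite strand of any of the 6 genes, so counting irrespective of strand gave identical counts for them.

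The libraries differed by less than a log2 unit in each of the 6 genes. For each of the 329 genes that reached 10 CPM in 1 library or both, a log2 ratio of replicate 2 to replicate 1 was formed after TMM scaling and addition of 1 CPM, which understates the ratios of low genes. Counts were tested with the exact conditional binomial test (two-sided), and p-values were adjusted over all 329 genes by the Benjamini-Hochberg method. This compares 2 libraries, not conditions. None of the 6 genes reached a log2 ratio of 1 in size, which 22.2% of all measured genes did. By the test 4 of the 6 differed, beside 74.2% of all measured genes. Of these 4, 1 was higher in replicate 2 (37.7% of all genes) and 3 were lower (36.5% of all genes). The median of the 6 log2 ratios was -0.12, beside -0.0052 over all genes.

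Mir375 was the gene that was higher in replicate 2, with a log2 ratio of 0.41 (exact 95% interval 0.40 to 0.43). Its adjusted p was too small to be represented. With Mir126a left out of the library totals, a setting added after the data were seen, its ratio was 0.15, that of Mir7b and of Mir137 -0.38, and that of Mir7-1 turned from 0.11 to -0.15. The median of all genes moved by -0.26 under that setting. Of the 329 genes, 58.1% had a larger ratio in size. Mir7b and Mir137 were lower in replicate 2 by nearly the same amount. The log2 ratio was -0.12 for Mir7b (-0.17 to -0.06, adjusted p = 4.03e-05 by the exact conditional test). For Mir137 it was also -0.12 (-0.21 to -0.03, adjusted p = 0.0135 by the exact conditional test). Ratios larger in size were found for 86.6% of genes against Mir7b and 86.0% against Mir137.

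Mir7-2 had a log2 ratio of -0.43 (-0.86 to -0.02, adjusted p = 0.0469 by the exact conditional test). This call was lost with DESeq2 size factors (adjusted p = 0.0680 by the exact test) and without the floor on CPM (adjusted p = 0.102 by the exact test). That of Mir137 was lost with DESeq2 size factors (adjusted p = 0.0775 by the exact test). Mir7-1 (0.11, interval -0.09 to 0.31, adjusted p = 0.346 by the exact test) did not pass. Mir153 (-0.52, interval -1.35 to 0.22, adjusted p = 0.180 by the exact test) did not pass either, and it reached the floor through replicate 1 alone, which fixed its direction.

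**Figure D2:**
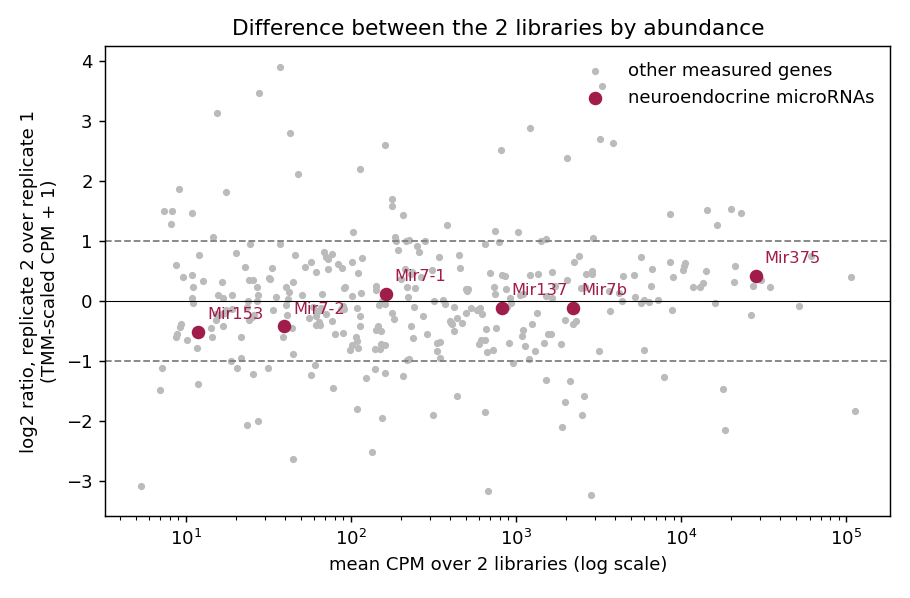
Log2 ratio of replicate 2 over replicate 1 against mean CPM (log axis) for the 329 measured genes, with the 6 neuroendocrine microRNAs in dark red. Each point is 1 gene and the dashed lines mark a log2 ratio of 1 in either direction. The 6 genes lie between -0.52 and 0.41, inside both lines.

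Ratios of counts within a library are free of any scaling between libraries, and by this measure Mir375 differed from Mir7b and Mir137 between the libraries by more than counting error. The ratio of Mir375 to Mir7b was 10.6 (exact 95% interval 10.3 to 10.96) in replicate 1 and 15.3 (14.96 to 15.7) in replicate 2. Against Mir137, the ratio of Mir375 was 28.5 (27.2 to 30.0) in replicate 1 and 41.2 (39.6 to 42.9) in replicate 2. Both ratios were thus 1.44 times as high in replicate 2. Mir7b over Mir137, by comparison, was 2.68 (2.54 to 2.84) in replicate 1 and 2.69 (2.57 to 2.82) in replicate 2. Mir7b and Mir137 lie on different chromosomes and have different seeds.

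Of the 15 pairs among the 6 genes, the intervals of the libraries overlapped in 11 and were apart in 4. Over all 53956 pairs of measured genes, 64.4% were apart, and low counts widen the intervals of pairs with Mir7-2 or Mir153. Those apart were Mir375 over Mir7b, Mir137, Mir7-1 (156 and 192) and Mir7-2 (540 and 976). Mir375 over Mir153 was 1731 (1205 to 2584) and 3415 (2392 to 5061), with intervals that overlapped. Mir153 was counted too few times for a firmer statement. Intervals cover counting error only, and with 1 library per animal the ratios have no test across animals.

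**Figure D3:**
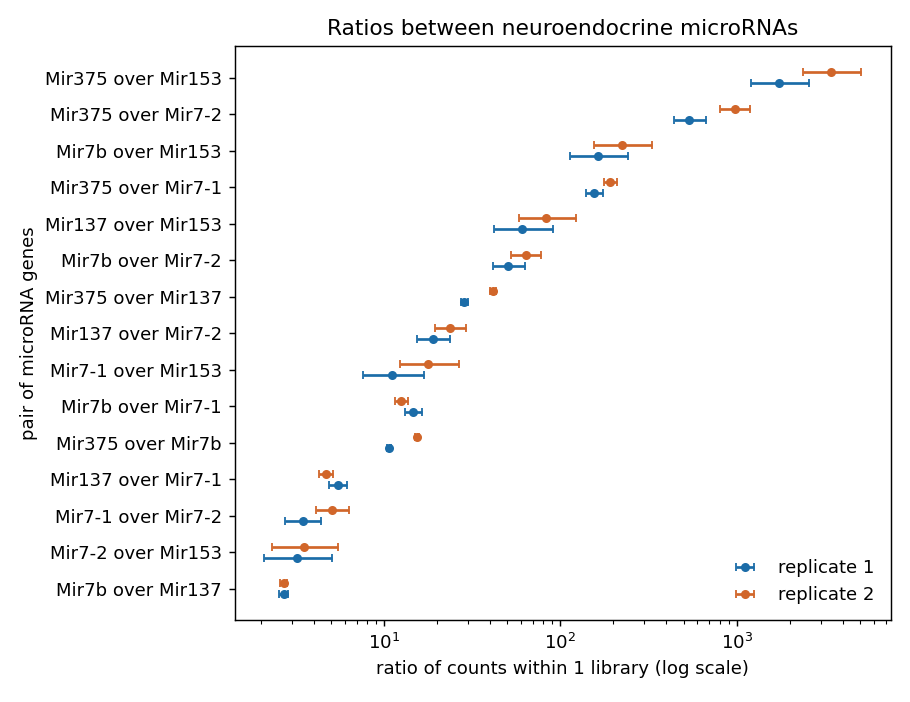
Ratio of counts (log axis) for each of the 15 pairs of neuroendocrine microRNA genes within replicate 1 and within replicate 2. Points are single libraries and bars are exact 95% intervals. The ratio of Mir7b to Mir137 is 2.68 and 2.69, while Mir375 over Mir7b is 10.6 and 15.3.

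By the size of the library difference alone, a likeness resting on 1 number from 2 libraries, the genes of at least 1000 CPM nearest to Mir375 were Mir674 (log2 ratio 0.41), Mir17 (0.42) and Mir532 (0.42). Nearest to Mir7b were Mirlet7g (-0.10), Mir411 (-0.16) and Mir27b (-0.17). Nearest to Mir137, among 93 genes, was Mir7b, followed by Mirlet7g and Mir411.

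Other microRNAs of neuroendocrine and sensory cells were scarcer than Mir375. The list held Mir182, Mir183 and Mir96, which share a primary transcript and are known from sensory cells, Mir132 and Mir212, which respond to cell activity through CREB, and Mir129-1 and Mir129-2. The 7 genes summed to 2086 and 1610 CPM, so the summed CPM of the 6 genes above was 13.5 and 21.7 times as high. Mir182 was the highest, at 1313 and 899 CPM (log2 ratio -0.50), followed by Mir132 at 486 and 526 CPM (0.16). Of the 6 measured genes, Mir132 was higher in replicate 2, Mir182 and Mir129-2 (116 and 39.9 CPM) were lower and 3 did not pass, among them Mir183 (125.5 and 101.9 CPM). Over all measured genes, 37.7% were higher and 36.5% lower. Mir129-1 and Mir129-2 share a mature sequence and are undercounted. Mir129-1 (12.8 and 7.48 CPM) reached the floor through replicate 1 alone, which fixed its direction. The median log2 ratio was -0.37 over the 6 and -0.25 over the 5 with 10 CPM in both libraries.

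Neuronal microRNAs were lower still. The 14 genes summed to 760 and 768 CPM, and Mir138-1 (384 and 355 CPM) was the highest, followed by Mir138-2, the neighbour of Mir7-1 above. Mir128-1 (80.6 and 122 CPM) was higher in replicate 2, and the other 5 measured genes, among them Mir218-2 (97.4 and 85.4 CPM), did not pass. Over all measured genes, 74.2% passed in either direction and 37.7% were higher. The 11 genes of this list with a mature sequence in the table each share it with another hairpin, compared with 37 of 275 (13.5%) among genes with 10 CPM in both libraries. The sum is thus no total for neuronal microRNAs. Mir137, Mir7b and Mir375 are free of this loss as far as the hairpins show.

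MicroRNAs that earlier work linked to steroid synthesis in the cortex covered a range that overlapped that of the neuroendocrine genes. Their 9 genes summed to 26600 and 42696 CPM, and the 6 neuroendocrine genes to 28226 and 34987 CPM. Mir24-1 and Mir24-2 of the former share a mature sequence, as Mir7-1 and Mir7-2 do, so both sums lack reads. Mature sequences were listed for 8 of the 9 steroid-linked genes, so other shared copies could be missed and the shortfall was not measured. The steroid-linked genes were led by Mir10b (7675 and 21089 CPM), Mir21a (4685 and 12350 CPM), Mir125a (7747 and 4239 CPM) and Mir320 (2512 and 3288 CPM). Of the 9, 4 were higher in replicate 2, 4 were lower and 1 did not pass, and 4 were past a log2 ratio of 1 in size. Over all measured genes, 37.7% were higher, 36.5% lower and 22.2% past that size.

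Mir375 is known from pancreatic islets and some epithelia as well, and which cells of this tissue made it was not measured. Genes of the exocrine pancreas do not report on islets. The exocrine pancreas genes were near the limit of counting: Mir217 had 5 and 12 counts, Mir216a 0 and 1, and Mir216b 0 in both libraries. With 0 counts, a level of at most 1.48 CPM (replicate 1) or 0.935 CPM (replicate 2) is still possible. The epithelial list came in sum to 742 CPM (replicate 1) and 3274 CPM (replicate 2), led by Mir203 (300.0 and 2141 CPM) and Mir200b (114 and 299 CPM). Its 7 genes were higher in replicate 2, beside 37.7% of all measured genes. Of these, Mir200a and Mir141 reached 10 CPM through replicate 2 alone, which fixed their direction. Other lists also had genes higher in replicate 2, with 5 of 6 leukocyte genes (summed level 3895 and 5368 CPM) and both smooth muscle genes (28429 and 39314 CPM). Each measured gene was lower for red blood cells (3 genes measured, summed level 653 and 320 CPM). The same held for striated muscle (2 measured, 11198 and 4488 CPM) and kidney or gut (2 measured, 352 and 118 CPM). It also held for the 1 measured gene of the endothelial list, Mir126a, and of the liver list, Mir122. Over all measured genes, 36.5% were lower. Mir133b of striated muscle reached 10 CPM through replicate 1 alone, which fixed its direction. Mir206 (11177 and 4480 CPM) made up most of the striated muscle sum. Mature sequences were listed for 3 of the 6 genes of that list, so shared copies could be missed. Of the 3 kidney or gut genes, 2 share a mature sequence, so their sum lacks reads. None of the 7 epithelial genes was at 0. The part of epithelial cells in the level of Mir375 was not tested. Mir182 and Mir183, which are also known from epithelia, were at 1313 and 125.5 CPM in replicate 1 and at 899 and 101.9 CPM in replicate 2.

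**Figure D4:**
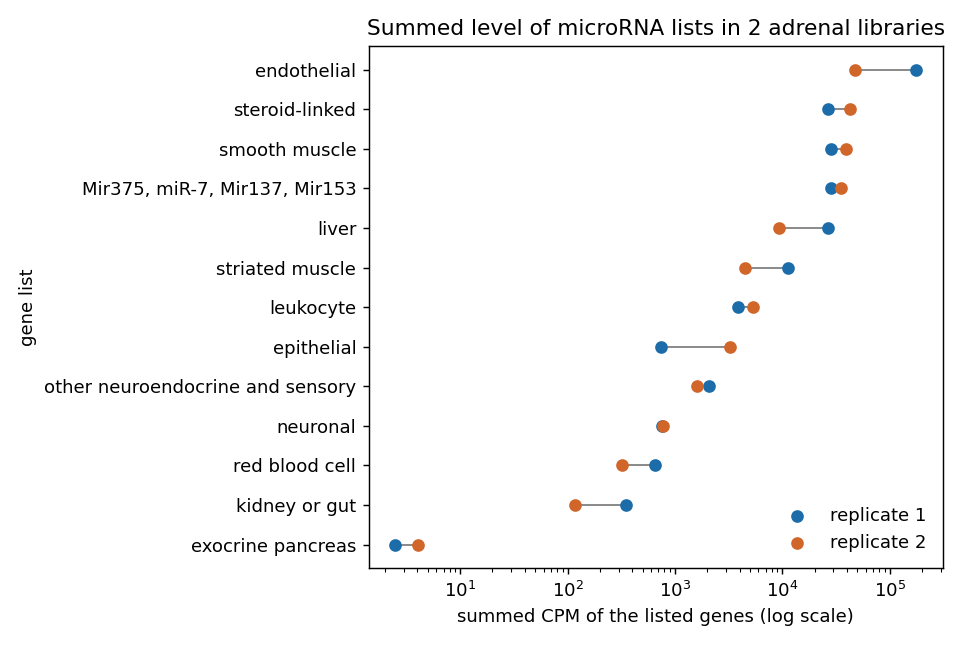
Summed CPM (log axis) of each gene list in replicate 1 and replicate 2, with a line joining the libraries. The 6 neuroendocrine genes stand at 28226 and 34987 CPM, next to the smooth muscle and steroid-linked lists, and the endothelial and epithelial lists show wide gaps between the libraries.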

How the data were processed

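MicroRNA sequencing libraries of adrenal tissue, 2 in number, were analysed. The authors deposited, for each library, unnormalized counts of reads per microRNA gene on mm10 with the GENCODE M21 annotation, as the notes beside the files state. Which aligner and counter were used is not given in the sources used here. Sense-strand counts were used, and the 4 summary lines (unmapped, several alignments, outside microRNA genes, ambiguous) were left out of totals. Reads with several alignments were 25.0% and 27.2% of all 5278986 and 8555429 reads in replicates 1 and 2, those without an alignment 28.1% and 26.4%, and those outside microRNA genes 8.55% and 8.86%. All 2202 identifiers matched M21. A single count was worth 0.494 and 0.312 CPM. No molecular identifiers are named, so intervals and limits cover counting error only.

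Libraries were scaled by TMM in edgeR 4.0.16 (R 4.3.3). The exact conditional binomial test and Clopper-Pearson intervals used SciPy 1.17.1 in Python 3.11.15, with a threshold of 0.05. The test was checked on simulated counts drawn with counting error only. That check therefore does not cover variation between libraries or animals. Alternatives were plain CPM, size factors from DESeq2 1.42.0, other floors and pseudocounts, other totals and counts irrespective of strand. Sequences and their matches came from RefSeq (GRCm38.p6).

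The 6 genes and the 12 comparison lists were chosen with earlier results of these data known. The rule for named genes allowed the 6, up to 4 of the highest genes of the neuroendocrine, neuronal and steroid-linked lists, up to 2 of any other list, neighbours by mean CPM, and the 3 genes nearest by log2 ratio. Mir7j, Mir96, Mir212, Mir129-1, Mir24-1, Mir24-2, Mir200a, Mir141 and Mir216b fall outside it and were named after their values were seen.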

Additional observations from a re-analysis of the deposited data

How the results depend on the processing

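The log2 ratio of Mir375 stayed positive and those of Mir7b, Mir137, Mir7-2 and Mir153 stayed negative under each scaling, floor, pseudocount and strand setting that gave a value. Mir7-1, which did not pass the test, changed sign when Mir126a was left out of the totals (0.11 to -0.15). That setting, added after the data were seen, moved the median of all genes by -0.26. It took Mir375 to 0.15, Mir7b to -0.38 and Mir137 to -0.38. Relative to the median of all genes these were 0.42, -0.11 and -0.11, the same as with TMM. A changed total shifts all genes by nearly the same amount, so this sameness was fixed in advance. Mir153 had an adjusted p of 0.0381 by the exact conditional test there (log2 ratio -0.77), but its direction was fixed by the floor, which it reached through replicate 1 alone. Of all genes that passed, 91 of 258 (35.3%) were then higher in replicate 2, against 124 of 244 (50.8%) with TMM. Under the other scalings, floors and counting irrespective of strand, between 195 and 247 genes passed.

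The number of genes with a log2 ratio of at least 1 in size, 73 of 329, became 131 of 790 without a floor and 48 of 217 with a floor of 100 CPM, where fewer or more genes were tested. Mir7-2 and Mir153 fell below the latter floor. The summed level of the 6 genes, 31607 CPM, became 42455 CPM irrespective of strand and 11971 CPM over all reads, both through a changed total. That of the other neuroendocrine and sensory list, 1848 CPM, became 2413 CPM irrespective of strand. With 1 library left out, the summed level of the 6 genes ran from 28226 to 34987 CPM, that list from 1610 to 2086 CPM, and the ratio of Mir375 to Mir7b from 10.6 to 15.3 (mean 13.0). No paired analysis was possible because there was 1 group. Depth limits Mir153, at 29 and 30 counts.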
